A study of Camellia sinensis with 12 samples.

Results

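Leaf RNA of Kucha-11 (K11), a Kucha tea genotype, was set against leaf RNA of Yinghong 9 (YH9, written Yinghong9 in the labels), a conventional variety of Camellia sinensis. The comparison uses 3 K11 and 3 YH9 libraries, 6 of the 12 in the series. Libraries were assigned by their genotype labels, and the pair was taken up because earlier results of these data had shown it to be the most distant pair of a Kucha with a conventional genotype. The other libraries are 3 of Kucha-6 (K6), also a Kucha, and 3 of Qingxin 1 (QX1), also conventional. They entered no call and serve to place K11 and YH9 among the genotypes. All plants stood in the same germplasm collection in Guangdong and received no treatment, per the labels' protocols, and no age or leaf stage is given. The series set out to compare genotypes with contrasting theacrine content. Each genotype is a single line of plants, so a difference between K11 and YH9 cannot be told apart from any other difference between these lines, and the labels do not say whether libraries came from separate plants. The p-values therefore set the difference against the spread between libraries, which may be technical.

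Tea leaves make caffeine from xanthosine by stepwise N-methylation, and in Kucha much of the purine alkaloid is theacrine, a methylated urate that derives from caffeine by oxidation and further methylation. Kucha tea is known for its bitter taste. The features measured here carry identifiers only: TEA names for annotated genes and XLOC names for loci outside the annotation. Of all identifiers, 0 matched any of 80110 RefSeq genes of tea, so no feature below can be given a gene name or a function. For the same reason the leaf label could not be checked against marker genes.

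Expression is given as FPKM, fragments scaled to the length of the feature and to the mapped fragments of the library, as deposited. Differences were taken on log2(FPKM + 1), where a value of 1 means a doubling for well expressed features and where the change of features near 0 is understated. Of 42704 listed features, 27201 reached 1 FPKM in at least 3 of the 6 libraries and were tested, 21580 of them TEA genes and 5621 XLOC loci. At this limit, 400 features whose third-highest value was 1 FPKM or less than 0.1 above it entered, while 470 whose third-highest value was up to 0.1 below 1 FPKM did not. A feature was called when its Benjamini-Hochberg adjusted p over all tested features was below 0.05 in limma and its log2 difference was at least 1 in size.

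The distance for which the pair was chosen is given first, as a description. Across the tested features the Pearson correlation between a K11 and a YH9 library averaged 0.791, from 0.781 to 0.799 over 9 pairs of libraries, against 0.978 within K11 and 0.984 within YH9. K11 stood nearer to both other genotypes, at a mean of 0.858 with K6 and 0.860 with QX1, and so did YH9, at 0.845 with K6 and 0.836 with QX1. The tested features were chosen for their level in K11 and YH9, and features are not independent replicates, so these values are descriptions.

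The libraries of both genotypes were similar in total, with summed FPKM of 623828 to 636916 in K11 and 609588 to 633857 in YH9. YH9 libraries listed fewer features at exactly 0, namely 7691, 9061 and 8989, against 10365, 10298 and 10028 in K11. The smallest values of short loci were also lower in YH9. Among XLOC loci under 1500 bases at 0.1 FPKM or more, the 1st percentile of FPKM multiplied by span in kilobases was 0.0728 to 0.0741 in YH9 and 0.0940 to 0.0971 in K11, and a lower value goes with more fragments per library. For both measures the exact two-sided permutation test gave p = 0.1, the smallest that 3 against 3 libraries allow. Absolute depth is unknown, since no counts were used.

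Of the tested features, 6866 or 25.2% were called. K11 was higher in 2973 (10.9% of those tested) and lower in 3893 (14.3%), so 43.3% of the calls were higher in K11. The median log2 difference was 1.57 among the higher and -1.56 among the lower features, beside -0.09 over all tested features. Most calls were modest in size: 2095 of those higher and 2782 of those lower were below 2 on the log2 scale. Differences of at least 3, an 8-fold change, were seen in 257 higher and 354 lower features, and of at least 5 in 19 and 27. The K11 and YH9 libraries did not overlap in 6845 of the 6866 called features, against 65.1% of all tested features. The 65.1% counts differences of any size, and so takes in any offset in scaling between the libraries. Likewise, 15942 features (58.6%) had an adjusted p below 0.05 in limma when no size was required.

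Part of the calls follow from how features entered. A feature at 1 FPKM or more in all libraries of one genotype and in none of the other was bound to differ. There were 1245 such features on the K11 side, 1010 of them called, and 1580 on the YH9 side, 1327 of them called. Among the 21626 features with at least 1 FPKM in all 6 libraries, 3691 were called (17.1%), 1623 higher and 2068 lower in K11.

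**Figure D1:**
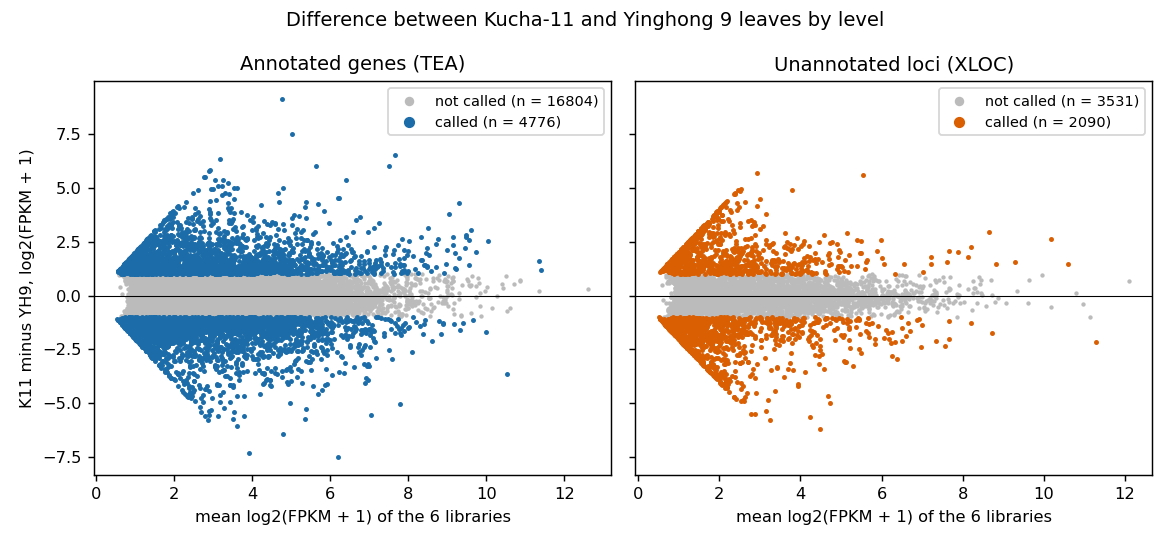
Difference between K11 and YH9 on log2(FPKM + 1) against the mean level of the 6 libraries, with 1 point per tested feature, annotated genes on the left and unannotated loci on the right. Coloured points are the 4776 TEA genes and 2090 XLOC loci that were called, and the slanting edges at the left are features at or near 0 in one of the genotypes.

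At low levels a larger share of XLOC loci than of TEA genes was called, and at high levels it was not larger. Overall 4776 TEA genes (22.1% of those tested) and 2090 XLOC loci (37.2%) were called. Of the TEA genes, 2101 were higher and 2675 lower in K11, and of the XLOC loci, 872 were higher and 1218 lower. The order of the TEA genes depends on scaling, since quantile normalization gave 2446 higher and 2333 lower. Among features with a mean below 2 FPKM over the 6 libraries, 47.4% of the XLOC loci and 29.0% of the TEA genes were called. From 10 to 30 FPKM the shares were 24.3% and 18.0%, and from 30 to 100 FPKM they were 20.6% and 22.2%. At 100 FPKM or more the order was the reverse, with 23.4% of 145 XLOC loci and 34.8% of 765 TEA genes. No test of the difference between the classes was made. The low side of a called XLOC locus was close to 0: the median level of the higher loci was 6.18 FPKM in K11 and 0.588 in YH9, and that of the lower loci 0.430 and 5.16. Called TEA genes kept more on their low side, with medians of 11.8 FPKM in K11 and 2.65 in YH9 for the higher genes, and of 2.84 and 12.4 for the lower ones. Called loci spanned a median of 2940.5 bases, against 3583 for all tested XLOC loci.

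**Figure D2:**
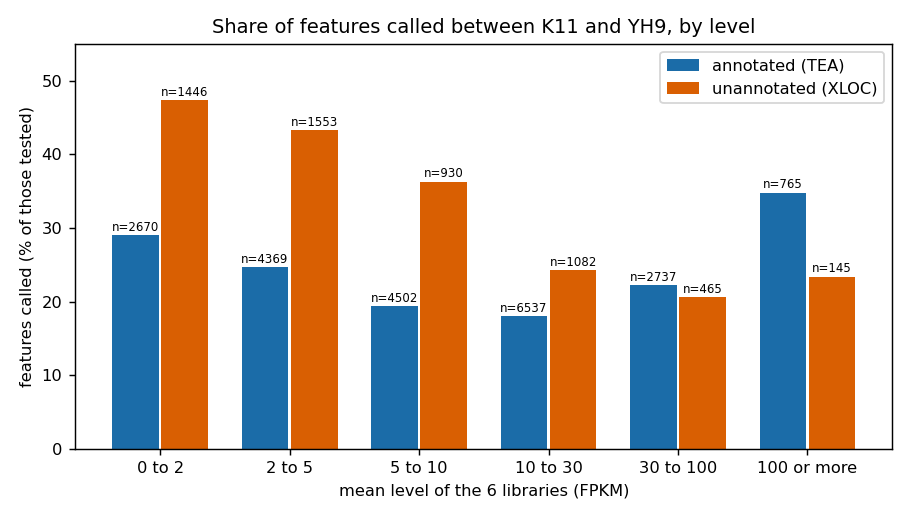
Percentage of tested features called between K11 and YH9, by mean level in FPKM, for annotated genes and unannotated loci, with the number tested above each bar. Both shares fall and then rise: that of loci from 47.4% in the lowest class to 20.6% at 30 to 100 FPKM and 23.4% in the highest, and that of annotated genes from 29.0% to 18.0% at 10 to 30 FPKM and 34.8% in the highest.

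Features were then named by their size of difference. For each class they are the 4 greatest rises and the 4 greatest falls in K11 among called features whose K11 and YH9 libraries did not overlap. They were picked for their differences in these same libraries, so their p-values are those of selected features. Each sets the difference against a spread between libraries that is estimated with help from the other tested features. The numbers that follow are FPKM in replicates 1, 2 and 3, in that order.

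The greatest rise of any feature was that of TEA009099.1. It stood at 726, 544 and 678 FPKM in K11 and at 0, 0.30 and 0.19 in YH9. All K11 libraries were high and all YH9 libraries were at or near 0. On log2(FPKM + 1) the difference was 9.12 ± 0.14 (SE), with an adjusted p of 2.91e-09 in limma. K6 resembled K11, at 285 to 513 FPKM, and QX1 resembled YH9, at 0.16 to 1.21.

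TEA004368.1 was next, at 384, 744 and 296 FPKM in K11 and 0.16, 9.95 and 0.14 in YH9. A single YH9 library, replicate 2, accounts for most of the YH9 level, and the K11 libraries also spread widely. With a difference of 7.50 ± 0.90 (SE), its error was the largest of the 4 rises (limma, adjusted p = 0.000374), and without YH9 replicate 2 the difference was 8.58. K6 lay at 58.2 to 128 FPKM and QX1 at 12.2 to 28.6, both between the K11 and the YH9 levels.

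The most abundant feature in this set was TEA004730.1, a gene low in YH9 rather than high in K11. Its values were 1741, 2335 and 1800 FPKM in K11 and 14.3, 27.2 and 20.6 in YH9. In K6 it stood at 1526 to 1877 FPKM and in QX1 at 1680 to 2038, within or close to the K11 range. YH9 was thus the genotype that stood apart. The difference between K11 and YH9 was 6.53 ± 0.22 (SE; limma, adjusted p = 1.52e-07).

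TEA021319.1 had the opposite pattern. K11 had 68.7, 85.6 and 85.2 FPKM, while YH9 had 0.03, 0 and 0. The other genotypes were also near 0, at 0.16 to 0.56 FPKM in K6 and at most 0.09 in QX1, so that K11 was the genotype that stood apart. The difference was 6.32 ± 0.13 (SE; limma, adjusted p = 7.99e-09).

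The deepest fall was that of TEA004366.1, whose identifier lies close to that of TEA004368.1. The files give no position for TEA genes, so it is not known here whether the genes are neighbours or similar in sequence. TEA004366.1 had 5.44, 5.44 and 2.88 FPKM in K11 and 771, 857 and 1411 in YH9. K6 was high as well, at 1268 to 1385 FPKM, and QX1 stood at 350.5 to 601. K11 was the low genotype, with a difference of -7.49 ± 0.27 (SE; limma, adjusted p = 2.44e-07).

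For TEA010243.1 the values were 0.44, 0.20 and 0 FPKM in K11 and 194, 198 and 179 in YH9. Both Kucha genotypes were near 0, since K6 had 0.20 to 0.33 FPKM, and QX1 lay between at 11.6 to 24.0. The difference of K11 against YH9 was -7.32 ± 0.14 (SE; limma, adjusted p = 6.71e-09).

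TEA030368.1 and TEA004674.1 were low in K11 and high in each of the other genotypes. TEA030368.1 had 4.65, 0.83 and 1.55 FPKM in K11 against 247, 274 and 248 in YH9, 307 to 391 in K6 and 639 to 693 in QX1. TEA004674.1 had 0.72, 0.50 and 0.32 FPKM in K11 against 104, 99.2 and 96.6 in YH9, 86.3 to 92.0 in K6 and 93.6 to 107 in QX1. For TEA004674.1 the level of the other genotypes was even, whereas for TEA030368.1 QX1 exceeded YH9. Their differences were -6.43 ± 0.35 and -6.07 ± 0.12 (SE; limma, adjusted p = 2.03e-06 and 7.99e-09).

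**Figure D3:**
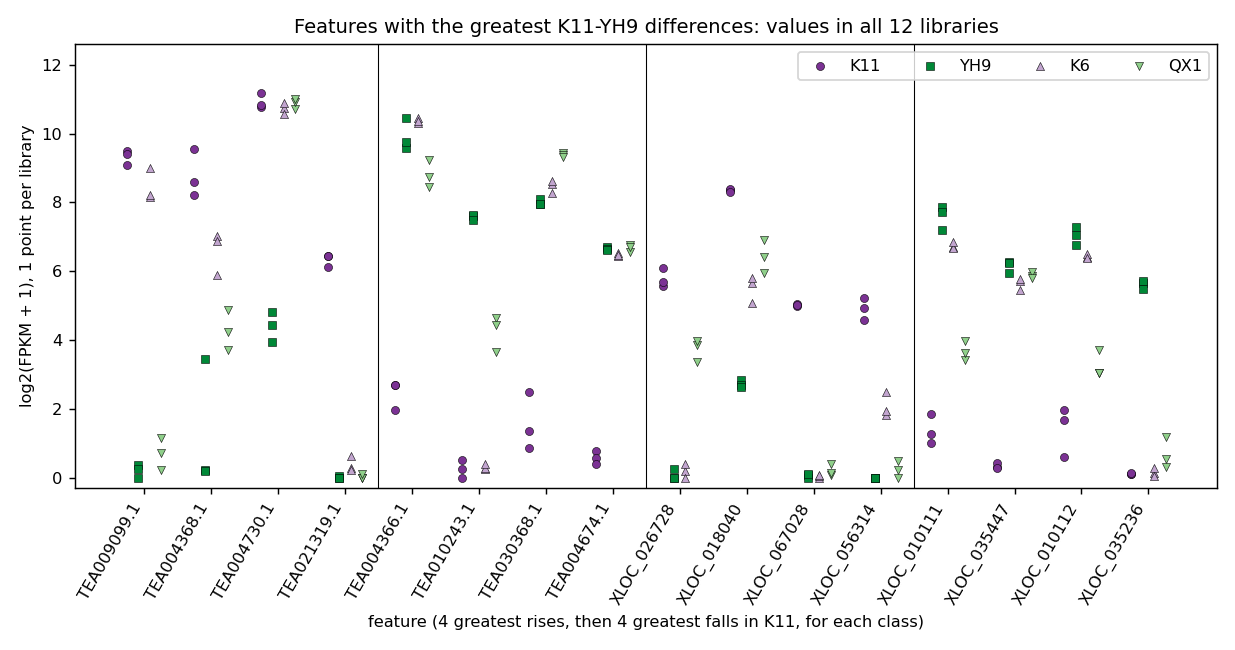
Level on log2(FPKM + 1) of the 16 features with the greatest differences, with 1 point per library for K11, YH9, K6 and QX1; vertical lines separate TEA rises, TEA falls, XLOC rises and XLOC falls. For TEA004730.1 the YH9 points lie apart below those of the other genotypes, and for TEA004674.1 the K11 points do.

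XLOC loci carry a scaffold position in the tables, printed here as the authors gave it; the genome build behind it is not named in the files or labels. Their listed length is the genomic span. The locus with the greatest rise, XLOC_026728, lies on the plus strand of scaffold 2478 from 828 to 1968. It had 46.6, 50.9 and 67.5 FPKM in K11 and 0, 0 and 0.19 in YH9. K6 was near 0 (at most 0.31 FPKM), whereas QX1 stood at 9.25 to 14.6. The difference was 5.70 ± 0.16 (SE; limma, adjusted p = 3.47e-08).

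XLOC_018040, on the minus strand of scaffold 1916 from 2536538 to 2542908, was the most abundant of the rising loci named here. Its values were 328, 334 and 312 FPKM in K11 and 6.20, 5.46 and 5.27 in YH9. The other genotypes lay between, at 32.8 to 55.1 FPKM in K6 and 60.9 to 118 in QX1, so that all genotypes held levels apart from each other. K11 exceeded YH9 by 5.62 ± 0.09 (SE; limma, adjusted p = 2.91e-09).

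XLOC_067028 (scaffold 890, minus strand, 1517286 to 1523715) was found at 31.1, 32.4 and 31.6 FPKM in K11 and at 0.05, 0 and 0.09 in YH9. No library of K6 or QX1 exceeded 0.31 FPKM. XLOC_056314 (scaffold 605, plus strand, 1725015 to 1725768) had 23.2, 29.6 and 36.5 FPKM in K11 and was listed at 0 in all YH9 libraries. K6 had a low level of it, at 2.52 to 4.67 FPKM, and QX1 at most 0.40. The difference of XLOC_067028 was 4.97 ± 0.12 (SE; limma, adjusted p = 1.89e-08).

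Among falling loci, XLOC_010111 and XLOC_010112 lie on the minus strand of scaffold 1492, from 3491719 to 3499499 and from 3495322 to 3497104. The second span is inside the first, and how the authors divided fragments between them is not stated. XLOC_010111 had 2.65, 1.03 and 1.40 FPKM in K11 and 232, 145 and 211 in YH9, a difference of -6.21 ± 0.24 (SE; limma, adjusted p = 3.79e-07). XLOC_010112 had 2.18, 2.94 and 0.52 FPKM in K11 and 156, 108 and 133 in YH9. At both, K6 was nearer to YH9, at 82.6 to 114 FPKM, and QX1 was at 7.26 to 14.8.

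XLOC_035447, on the minus strand of scaffold 31843 from 2404 to 3446, was near 0 in K11 alone among the genotypes. It had 0.25, 0.35 and 0.22 FPKM in K11 against 76.5, 74.0 and 60.2 in YH9, with 42.9 to 53.7 in K6 and 54.4 to 62.2 in QX1. XLOC_035236, on the minus strand of scaffold 3161 from 446698 to 450185, was instead high in YH9 alone. It had 0.09, 0.08 and 0.11 FPKM in K11 and 49.9, 43.9 and 52.1 in YH9, while K6 had at most 0.21 and QX1 at most 1.29. Their differences were -5.80 ± 0.13 and -5.50 ± 0.12 (SE; limma, adjusted p = 9.76e-09 in both cases).

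Abundant features were called in both directions. A mean of 100 FPKM or more over the 6 libraries was reached by 910 tested features, of which 156 were higher and 144 lower in K11. The greatest rises and falls among them were TEA genes given above, with 1 addition. TEA024774.1 had 5.73, 4.65 and 3.71 FPKM in K11 and 280, 332 and 278 in YH9. K6 and QX1 stood at 24.4 to 33.8 FPKM, between the K11 and the YH9 libraries and apart from both. The difference was -5.72 ± 0.14 (SE; limma, adjusted p = 1.40e-08).

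On/off features were defined as listed at 0 in all 3 libraries of one genotype and at 1 FPKM or more in all 3 of the other. A 0 in these files can stand for a level below the rounding or for a failed estimate, so no fold is given for them. Over all 42704 listed features, 379 (0.888%) were on in YH9 and off in K11, and 233 (0.546%) were on in K11 and off in YH9. XLOC loci made up most of both sets, with 269 of the 379 and 160 of the 233. Thus 429 of 8772 XLOC loci (4.89%) and 183 of 33932 TEA genes (0.539%) were on/off. Entries may repeat, since TEA013425.1 and TEA025742.1, both on in K11, had the same value in every library. How many entries do so was not counted. The larger number off in K11 goes with the larger number of features listed at 0 in K11 libraries, and the part of depth in it was not tested. When off was taken as at most 0.1 FPKM, the sets held 516 and 370 features, and when on was taken as at least 5 FPKM, 73 and 54.

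Most on/off features were weakly expressed where they were on. The median mean level was 2.99 FPKM for the set on in YH9 and 3.38 FPKM for the set on in K11, and 34 and 29 features reached 10 FPKM. The other genotypes were mixed. Of the 379 features on in YH9, 61 were at 0 in all 6 libraries of K6 and QX1, and 42 were at 1 FPKM or more in all 6 of them. Of the 233 features on in K11, 44 were at 0 in all 6 and 20 at 1 FPKM or more in all 6. Few followed the split into Kucha and conventional in full, with off taken as 0 in all 3 libraries. Of the 233, 2 were on in K6 and off in QX1. Among the 379, 10 were off in K6 and on in QX1. The reverse pairing was as rare, with 11 of the 233 on in QX1 and off in K6 and 5 of the 379 on in K6 and off in QX1. These counts are small partly by definition, since a trace value in 1 library leaves a feature out. In 261 of the 379 and 156 of the 233, K6 or QX1 was neither off nor on in all 3 libraries. XLOC_056300 and XLOC_007728, described below, are among those left out, with at most 0.06 FPKM in QX1 and 0.29 in K6, respectively.

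**Figure D4:**
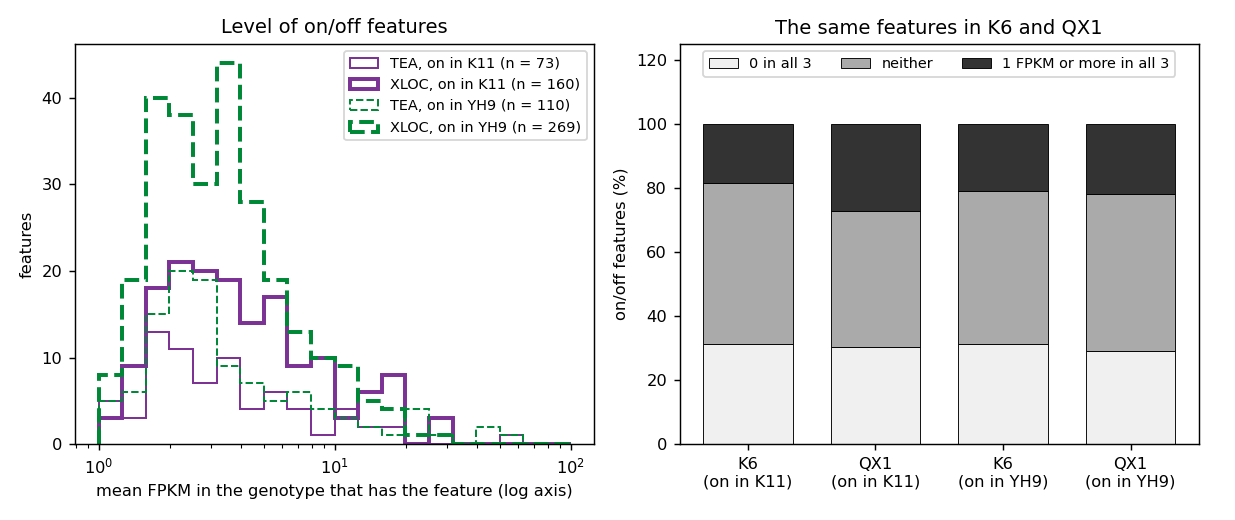
Left, number of on/off features by their mean FPKM in the genotype that has them, on a log axis, by class and direction. Right, percentage of the same features that K6 or QX1 lists at 0 in all 3 libraries, at 1 FPKM or more in all 3, or neither; in each bar the largest part is neither, from 42.5% to 50.2%.

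The on/off features with the highest levels were named for each class and direction. TEA019769.1 led the annotated genes on in K11, at 44.2, 62.4 and 61.3 FPKM there and 0 in every YH9 library. K6, at 43.1 to 52.7 FPKM, and QX1, at 31.1 to 46.7, overlapped the K11 libraries, so YH9 was the only genotype that listed it at 0. TEA015749.1 behaved alike, with 17.01, 18.9 and 14.0 FPKM in K11, 10.3 to 18.7 in K6 and 13.4 to 15.4 in QX1. TEA025039.1 instead was near 0 outside K11, with 17.6, 16.1 and 17.7 FPKM in K11 and at most 0.08 in any K6 or QX1 library.

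Among loci on in K11, XLOC_056314 was the highest and is described above. XLOC_056300, elsewhere on the same scaffold 605 (plus strand, 83794 to 92019), had 26.3, 24.3 and 27.5 FPKM in K11. Both Kucha genotypes had it, with 16.8 to 20.1 FPKM in K6 and at most 0.06 in QX1. XLOC_007499 (scaffold 1347, plus strand, 889034 to 892050) was detected in K11 alone, at 26.8, 26.7 and 23.4 FPKM, and was listed at 0 in all 9 libraries of the other genotypes.

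Of the annotated genes on in YH9 and off in K11, TEA019550.1 was the highest at 44.3, 69.2 and 48.9 FPKM. Its K6 and QX1 libraries disagreed among themselves, since replicate 2 had 0.22 FPKM in K6 and 0 in QX1 while the other replicates had 9.90 and 10.5 in K6 and 5.47 and 4.93 in QX1. TEA019569.1 had 31.6, 57.1 and 37.4 FPKM in YH9, 16.7 to 36.3 in K6 and at most 2.09 in QX1. TEA019876.1 was even across the YH9 libraries, at 47.3, 45.7 and 46.7 FPKM, and no other library exceeded 0.27.

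Loci on in YH9 and off in K11 were led by XLOC_035380, on the minus strand of scaffold 3176 from 1793074 to 1796247, with 28.0, 20.2 and 28.6 FPKM in YH9. It was at 0 in 2 of the 3 K6 libraries and in 2 of the 3 QX1 libraries, the others having 0.23 and 1.38 FPKM. XLOC_004718 (scaffold 1199, plus strand, 1717569 to 1718945) had 24.2, 18.3 and 22.2 FPKM in YH9 and at most 0.61 in K6 and QX1. XLOC_007728 (scaffold 1364, minus strand, 1464477 to 1465436) had 21.6, 15.2 and 19.5 FPKM in YH9 and 7.44 to 8.81 in QX1, with at most 0.29 in K6, so both conventional varieties had it.

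K6 and QX1 took no part in the calls, and their place between YH9 and K11 was described for each called feature. On the log2(FPKM + 1) scale the YH9 mean was set to 0 and the K11 mean to 1. A genotype mean above 0.75 was put on the K11 side and one below 0.25 on the YH9 side. Among the 3893 features lower in K11, both K6 and QX1 lay on the K11 side in 1472 (37.8%), so that YH9 was the high genotype. Both lay on the YH9 side in 407 (10.5%), where K11 was the low one. Among the 2973 features higher in K11, 786 (26.4%) had both on the YH9 side and 496 (16.7%) had both on the K11 side. Features on which K6 sided with K11 and QX1 with YH9, the Kucha and conventional pattern, were few: 113 among those higher and 113 among those lower in K11. The opposite pattern, K6 with YH9 and QX1 with K11, was met in 112 and 130. When a genotype was instead placed by all 3 of its libraries lying nearer to one of the means, the Kucha and conventional pattern held 196 higher and 166 lower features, and the opposite one 207 and 263.

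The counts also depend on scaling. After quantile normalization of the 12 libraries the same called features gave 1090 lower features with both on the K11 side and 609 with both on the YH9 side, the same order as before. For the higher features the order turned, to 545 with both on the YH9 side and 635 with both on the K11 side. The Kucha and conventional pattern then held 101 higher and 124 lower features. Between K6 and QX1 libraries the correlation across the tested features averaged 0.920.

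**Figure D5:**
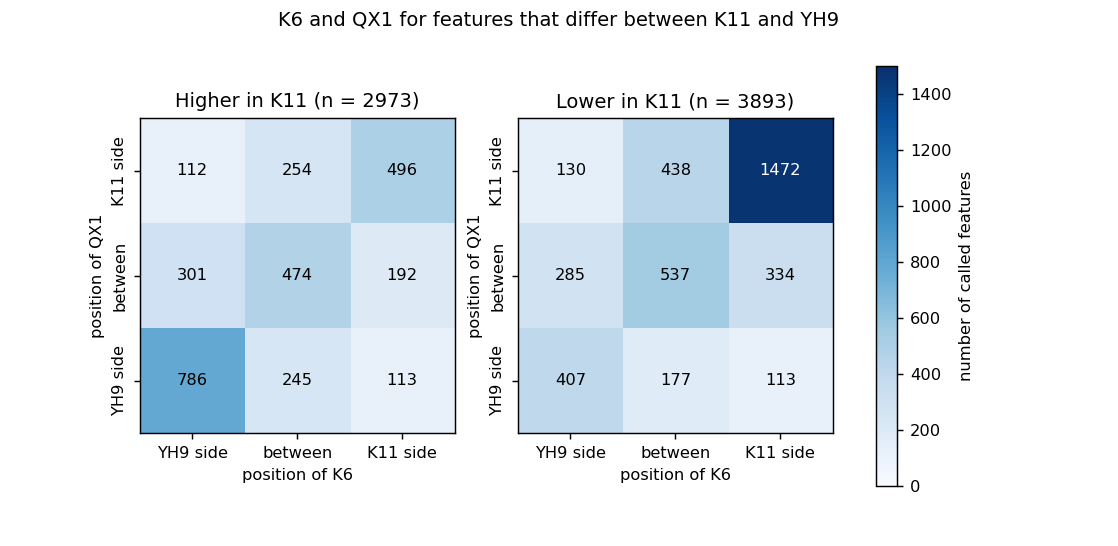
Number of called features by the position of K6 (horizontal) and QX1 (vertical) between the YH9 and the K11 mean, for features higher (left) and lower (right) in K11. The most frequent cell holds 1472 features lower in K11 for which both lie on the K11 side; the cells where they take opposite sides hold 112 to 130.

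Positions allowed neighbouring XLOC loci to be compared. Tested loci next to each other on a scaffold with a gap of at most 10000 bases formed 664 pairs. Both members were called in 139 pairs (20.9%). This is a share of pairs, so the 37.2% of single tested loci that were called is not its baseline. No baseline was computed for pairs, either for both being called or for their direction. The members went the same way in 119 pairs and opposite ways in 20. Of those 20, 15 had both members on the same strand, and of all 139, 47 had them on opposite strands. Spans overlapped in 48 of the 139 pairs, where fragments may be shared. Runs of 2 or more neighbours called in the same direction numbered 107, with 47 higher and 60 lower in K11, and held 226 of the 2090 called loci (10.8%). The longest held 3 loci for those higher and 4 for those lower in K11. Adjacent loci on the same strand may also be pieces of the same transcript, which the tables do not resolve.

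The run with the highest mean rise among the 3-locus runs occupies scaffold 3845, minus strand, from 482086 to 489753. XLOC_042122 had 18.3, 16.3 and 18.7 FPKM in K11, XLOC_042123 had 4.79, 2.64 and 2.28, and XLOC_042124 had 3.83, 2.76 and 3.32. All were at 0 in YH9, and in K6 and QX1 XLOC_042122 reached at most 0.20 FPKM while the others were at 0, so that the whole stretch was on in K11 and at or near 0 elsewhere. The next lies on scaffold 2606 from 1162504 to 1168728 and holds XLOC_028301 and XLOC_028302 on the minus strand with XLOC_028287 on the plus strand, whose span covers that of XLOC_028302. XLOC_028301 had 18.4, 19.2 and 24.6 FPKM in K11 and 1.17, 1.40 and 1.35 in YH9. At all 3 loci QX1 lay between the YH9 and the K11 libraries and K6 was low, with at most 1.28 FPKM.

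Of the falling runs, the longest spans scaffold 3106 from 243752 to 291222 on the minus strand, and several of its loci overlap. XLOC_034567, at its start, was at 0 in K11 and K6, at 3.77, 6.79 and 3.33 FPKM in YH9 and at 16.6 to 24.7 in QX1. XLOC_034568, next to it, had 0.75 to 0.81 FPKM in K11, 4.0 to 4.93 in YH9 and 15.5 to 16.6 in QX1. At both loci the Kucha genotypes were low and QX1 was above YH9. XLOC_034570 and XLOC_034572 were at 0 in K11 and K6 as well. The second falling run, on the minus strand of scaffold 1379 from 1048805 to 1054105, was high in YH9 and low in every other genotype. Its XLOC_008050 had 30.1, 21.9 and 29.3 FPKM in YH9 and 0.49, 1.1 and 1.32 in K11, a difference of -3.85 ± 0.20 (SE; limma, adjusted p = 5.59e-07).

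Pairs called in opposite directions included strong contrasts at short distance. XLOC_034887 (plus strand, 325866 to 328441) and XLOC_034897 (minus strand, 329211 to 333298) lie side by side on scaffold 3130. The first averaged 5.44 FPKM in K11 and 0.443 in YH9, while the second averaged 0.01 and 26.9. Their log2 differences were 2.15 and -4.78. This pair was singled out after its values were seen.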

How the data were processed

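Each library has a deposited table of FPKM values with 2 decimals; that the unit is FPKM is per the file headers, and the authors' scaling to feature length and mapped fragments was taken from that name. TopHat2 2.1.1 and Bowtie2 2.2.8 are listed, without roles, in the submitters' processing notes. How FPKM was computed, on which genome build and after which filters is not stated in the labels or files. The extraction text in the labels describes retinas and a dUTP strand protocol; leaf was taken from the tissue label, and the strand design is not certain. The differences were computed with limma 3.58.1 in R 4.3.3 on log2(FPKM + 1), with a trended and robust prior, from the 6 libraries compared. Named features follow the rules stated with them: the greatest differences, the abundant features, the highest on/off features, and, per direction, the 2 runs with the most loci, ties going to the larger mean difference. The comparison, its features and these rules were chosen with earlier results of these data known. Replicates of a genotype shared a value in at most 0.733% of features above 0 in either, so none was a copy. Alternatives were another pseudocount, 2 other filters, quantile scaling, trimmed-mean (TMM) scaling without weights, coded directly, a replicate block, a fit of all 12 libraries, another prior, each library left out, and other limits for on/off features, runs and positions.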

Additional observations from a re-analysis of the deposited data

How the results depend on the processing

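The number of called features was within 1.5 times 6866 under each alternative but one: with at least 5 FPKM required, fewer features were tested (18083) and 4292 were called, 1867 higher and 2425 lower, with 439 XLOC loci higher and 550 lower. All 4292 were among the 6866. This was largely bound to be so, since the stricter filter keeps a part of the same features with the same differences. Leaving each library out of the fit in turn gave 6862 to 6984 calls. The tested features were still those chosen on all 6 libraries. A pseudocount of 0.1 gave 8432 calls and no filter 7190. Under quantile normalization 49.7% of the calls were higher in K11 and under TMM scaling 46.9%, in place of 43.3%; for TEA genes alone quantile normalization turned the order (2446 higher, 2333 lower). The features named by rule kept direction and call under every alternative in which they were tested; XLOC_034887 and XLOC_034897, singled out later, were not run. The replicate numbers did not pair the libraries (correlations of deviations -0.119, 0.040 and -0.064 for the same number), and the replicate block gave 6860 calls.

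On/off counts move with their limits. With off at most 0.1 FPKM, 370 features were on in K11 (147 TEA) and 174 TEA genes on in YH9. With on at least 0.5 FPKM, 604 were on in YH9 (203 TEA) and 113 TEA genes on in K11. At 5 FPKM, 73 were on in YH9 (25 TEA, 48 XLOC) and 54 in K11 (13 TEA, 41 XLOC). Leaving out a library gave 417 to 461 on in YH9 and 257 to 304 on in K11. A gap of 50000 bases gave 135 runs. When a genotype was placed by all 3 libraries lying nearer to one of the means, the Kucha and conventional pattern held 196 higher features, and the opposite one 207 higher and 263 lower features. The placing by quantile-normalized values, and one without YH9 replicate 1 (777 and 501 higher, 410 and 1473 lower features with both genotypes on the YH9 and on the K11 side), were added after the data were seen.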
